A study of Mus musculus with 8 samples.

Results

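The crypt stem cell markers are 10 genes that are read out to recognise the stem cells at the base of the intestinal crypt: Lgr5, Lgr4, Olfm4, Ascl2, Smoc2, Tnfrsf19, Msi1, Prom1, Slc12a2 and Rgmb. They were taken by symbol from the 53801 genes of the count table, and all 10 were found and had enough counts to be tested. The values come from Paneth cells of the mouse small intestine, sorted as viable EpCAM+ Cd24+ cells after staining that also included CD45. Each library was made from 300 cells. Control mice (n = 4) were β-cat GOF with Mll1+/− and knockout mice (n = 4) were β-cat GOF with Mll1−/−. The Mll1 genotypes follow the labels, and β-cat GOF follows the study's results and figure legends. By these, both genotypes carry stabilized β-catenin and at least 1 lost Mll1 allele, and no wild-type mice were included. The methods for the sort instead name Mll1 littermates and give no β-catenin allele, and the counts were not used to settle this difference. In both, Lgr5-EGFP-IRES-CreERT2 drives the recombination, which the study describes as a mosaic of recombined and non-recombined crypts; the cassette lies in the Lgr5 locus, and the counts do not tell the Lgr5 alleles apart. The mice were 4 to 6 weeks old at induction, received 1 mg tamoxifen in 3 daily injections and were analysed 10 days later. The strain background is not given in the sources used here.

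Stem cells at the crypt base sit between Paneth cells and keep dividing under Wnt signals. R-spondins strengthen these signals through the receptors Lgr4 and Lgr5, which protect Frizzled receptors from the ubiquitin ligases Rnf43 and Znrf3, and several of the markers are themselves Wnt targets. Mll1, the product of Kmt2a, is a histone methyltransferase, and the comparison asks how its loss in Wnt-high crypts changes the transcripts that accompany the sorted Paneth cells. In bulk RNA of sorted cells, fewer cells of a type and less RNA per cell cannot be told apart.

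Totals on genes were between 13037832 and 14380240 counts per library, and a count of 3 corresponded to between 0.173 and 0.353 normalized CPM, counts scaled to library size (CPM) and then corrected for library composition (TMM). Kmt2a had 268 to 719 counts in the controls and 328 to 523 in the knockouts. Its log2 fold change, knockout against control, was −0.06 with a standard error (SE) of 0.24 and an adjusted p of 0.995 in edgeR's quasi-likelihood test. The count is summed over all exons and does not check the deletion. By immunohistochemistry, the study reported that when cells were sorted, all crypt cells of the knockouts, Paneth cells included, lacked Mll1. The Paneth cell label held in every library: the summed level of 18 of them was 280473 to 587240 normalized CPM in the controls, and Defa24 alone reached at least 183208 normalized CPM in every library. Knockout 3 stood apart. Its mitochondrial share was 2.04% against 5.98% to 6.16% in the other knockouts, and its Paneth sum was 770781 against 284759 to 341085. The fold changes of the 10 markers and the medians of the lists are therefore given with and without this library.

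None of the 10 markers passed an adjusted p of 0.05 together with a log2 fold change of 0.5 in edgeR's quasi-likelihood test, cutoffs that 0.186% of the 13439 tested genes passed, and none passed a false discovery rate of 10%, which 0.283% of the genes did. At an unadjusted p under 0.05, 4 of the 10 differed, against 6.88% of all tested genes. Tnfrsf19 was the only one of these that was higher in the knockouts (4.35% of all genes), and Olfm4, Ascl2 and Slc12a2 were lower (2.53% of all genes). In normalized CPM the genotypes did not overlap for 1 of the 10, Slc12a2, against 4.52% of all genes. The median log2 fold change of the 10 was −0.21, beside 0.01 over all tested genes, with 2 members above and 8 below 0, and −0.14 beside −0.01 without knockout 3. Other tests placed Tnfrsf19 past both cutoffs: DESeq2's Wald test and limma-voom with quality weights each called 1 of the 10, and this was Tnfrsf19 both times, where they called 1.03% and 0.707% of all tested genes.

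**Figure D1:**
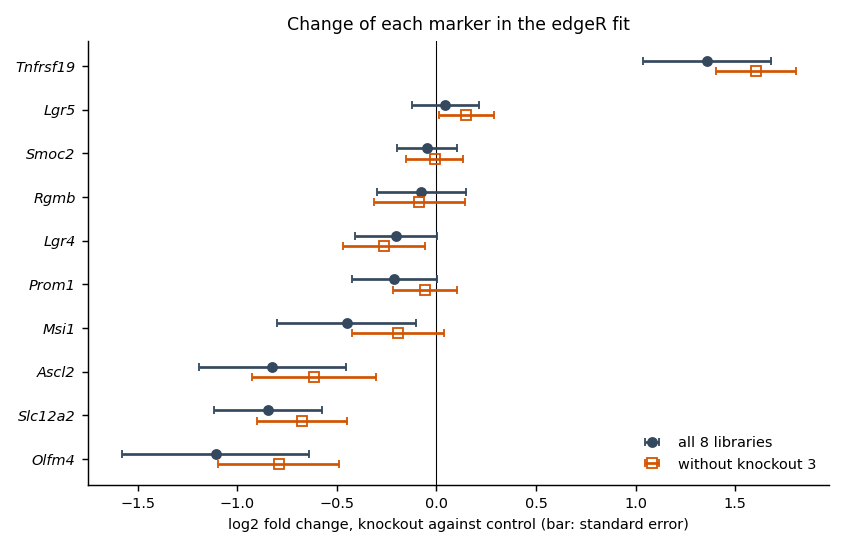
Log2 fold change of each of the 10 markers (knockout against control, x axis) in the edgeR fit, with bars of 1 standard error, for all 8 libraries (filled circles) and without knockout 3 (open squares). Tnfrsf19 lies at 1.36 and 1.61, Lgr5, Smoc2 and Rgmb lie near 0 in both fits, and Olfm4, Slc12a2 and Ascl2 lie lowest.

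Lgr5, the R-spondin receptor that defines crypt base stem cells, had overlapping levels in both genotypes. It is on chromosome 10 from 115450311 to 115587780, on the minus strand. Controls 1 to 4 had 49.98, 43.0, 51.0 and 45.9 normalized CPM, and knockouts 1 to 4 had 55.6, 51.4, 37.3 and 51.3. The lowest and the highest of the 8 were both knockouts, so the control range lay inside the knockout range. The means were 47.5 ± 3.73 and 48.9 ± 7.98 (SD, n = 4 each), and the log2 fold change was 0.04 (SE 0.17, adjusted p = 0.994, 95% interval −0.32 to 0.41). Without knockout 3 it was 0.15 (SE 0.14, adjusted p = 0.751). The Cre cassette was inserted in the Lgr5 locus, and these counts do not tell the Lgr5 alleles apart, so they do not measure the Cre driver on its own.

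Lgr4, the second R-spondin receptor, is expressed more widely in the crypt. The gene is on chromosome 2 from 109917647 to 110014257. Its level was between 57.9 and 112 normalized CPM in the controls and between 65.1 and 78.9 in the knockouts, which lay inside the control range (log2 fold change −0.20, SE 0.21, adjusted p = 0.943). Without knockout 3 the log2 fold change was −0.26 (SE 0.21, adjusted p = 0.693). Control 4 had the highest value, and without it the log2 fold change was −0.02.

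Olfm4 is a secreted glycoprotein and the most abundant of the 10 markers. The gene lies on chromosome 14 from 79984081 to 80023139. Controls 1 to 4 had 1123, 864, 449 and 1069 normalized CPM, and knockouts 1 to 4 had 375, 458, 103 and 688. Control 3 was the low control and fell among the knockouts, and knockout 3 was the lowest library of all. The means were 876 ± 306 and 406 ± 241 (SD, n = 4 each), and the fitted difference was −1.11 on the log2 scale (SE 0.47, unadjusted p = 0.0371, adjusted p = 0.671). An exact permutation test on log2(normalized CPM + 1) gave p = 0.0857, two-sided, where the smallest p that 4 against 4 allows is 0.0286. Without knockout 3 the log2 fold change was −0.79 (SE 0.30, adjusted p = 0.344).

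The level of Olfm4 was also read beside that of Xist. Xist, the RNA of the inactive X chromosome, had 1055 to 2697 counts in controls 1, 2 and 4 and knockout 4, where Olfm4 was between 688 and 1123 normalized CPM, and 1 to 6 counts in control 3 and knockouts 1 and 2, where Olfm4 was between 375 and 458. Knockout 3 departed from this order: it had 1037 Xist counts, 148 counts on 4 Y-linked genes and the lowest Olfm4 level. Of the libraries with few Xist counts, the control, at 449, lay between both knockouts, and of those with many, knockouts 4 and 3, at 688 and 103, lay below all 3 controls, at 864 to 1123. With the Y-linked level as a covariate, chosen after seeing the data, the log2 fold change of Olfm4 was −0.74 (adjusted p = 0.956). The part of sex in the difference was not tested further.

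Ascl2, a basic helix-loop-helix transcription factor that maintains the stem cell state, lies on chromosome 7 from 142966829 to 142969264. It had 11.6, 9.47, 4.59 and 7.36 normalized CPM in controls 1 to 4 and 6.55, 5.47, 2.24 and 4.198 in knockouts 1 to 4. Controls 1, 2 and 4 lay above every knockout, and control 3 was below knockouts 1 and 2. The counts behind these levels were 51 to 184 in the controls and 19 to 95 in the knockouts. The log2 fold change was −0.82 (SE 0.37, unadjusted p = 0.0465, adjusted p = 0.702, exact permutation p = 0.114), and −0.62 without knockout 3 (SE 0.31, adjusted p = 0.499).

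**Figure D2:**
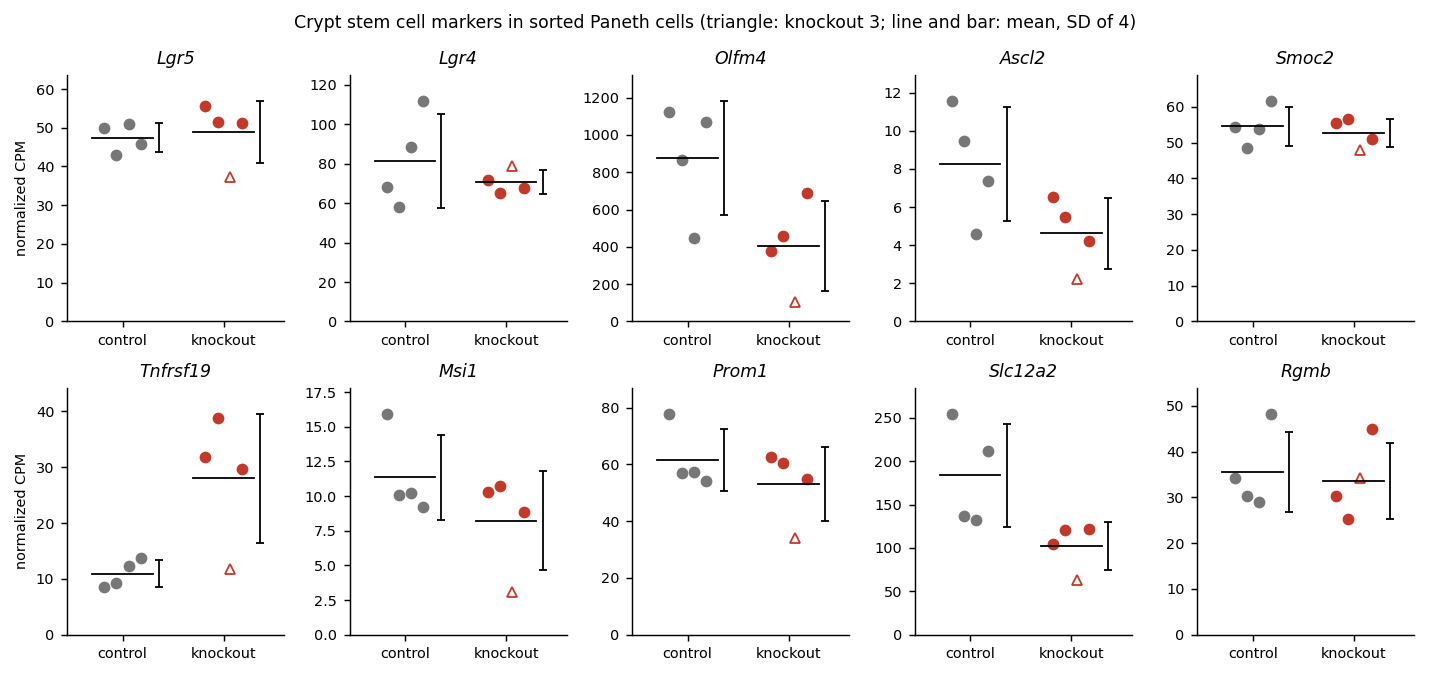
Normalized CPM (y axis, from 0) of each of the 10 markers in the 4 control and 4 knockout libraries. Each point is a library, the open triangle is knockout 3, the line is the mean and the bar beside it is the SD. Slc12a2 is the marker whose groups do not overlap, and for Tnfrsf19 3 knockouts lie above every control while knockout 3, at 11.8, lies among them.

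Tnfrsf19, also called Troy, is a receptor of the TNF receptor family that marks stem cells and responds to Wnt signals. It is on chromosome 14 from 60963875 to 61046490, on the minus strand. Controls 1 to 4 had 8.61, 9.23, 12.2 and 13.8 normalized CPM, and knockouts 1 to 4 had 31.8, 38.8, 11.8 and 29.6. Knockouts 1, 2 and 4 were each above every control, whereas knockout 3 lay between control 2 and control 3. The means were 10.97 ± 2.45 and 28.0 ± 11.5 (SD, n = 4 each), and the fitted difference was 1.36 on the log2 scale (SE 0.32, unadjusted p = 0.00127, adjusted p = 0.23, 95% interval 0.66 to 2.06). By unadjusted p it ranked 74 among the 13439 tested genes. The exact permutation test gave p = 0.0857.

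Without knockout 3, Tnfrsf19 was 33.4 ± 4.78 normalized CPM in the knockouts (SD, n = 3), and its log2 fold change of 1.61, a 3.04-fold higher level, had an SE of 0.20 and an adjusted p of 0.00187 in edgeR's quasi-likelihood test. It was the only one of the 10 past both cutoffs in this fit, where 1.08% of 14086 genes passed them. The genotypes then did not overlap for Tnfrsf19 and Slc12a2, against 11.3% of all genes. With DESeq2's Wald test on all 8 libraries the adjusted p of Tnfrsf19 was 0.0128 and with limma-voom it was 0.0116. Leaving out a library other than knockout 3 gave log2 fold changes between 1.16 and 1.48 that did not pass the adjusted cutoff. On the log2(normalized CPM + 1) scale, the difference was 1.86 between controls 1 and 2 and knockouts 1 and 2, whose library numbers run together in the labels. It was 0.50 in the other set of 4 libraries, which holds knockout 3. In the first of these sets, Xist had 1188 to 2697 counts in the controls and 3 to 6 in the knockouts, so genotype and sex cannot be told apart there. With the Y-linked level as a covariate, the log2 fold change of Tnfrsf19 over all 8 libraries was 1.28 (adjusted p = 0.54, edgeR's quasi-likelihood test). The part of sex in its difference was not tested further.

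Promoter windows from the RefSeq table (GRCm38.p6, the build of the counts) were used for 6 of the 10 genes: Lgr4, Olfm4, Ascl2, Tnfrsf19, Prom1 and Rgmb. Those of Lgr5, Smoc2, Msi1 and Slc12a2 were not used here, whether or not the table lists them. Slc12a2 was also lower at an unadjusted p under 0.05, so the windows below leave out 1 of the lower markers. Each window runs from 250 bases before to 50 bases after an annotated start. The windows of Tnfrsf19, Olfm4 and Ascl2, which had an unadjusted p under 0.05, are shown to set the annotated start windows of the marker that was higher beside those of markers that were lower. Capitals mark CTTTGAT, the core letters of a Tcf/Lef site, and CAGCTG, an E-box of the kind basic helix-loop-helix factors bind, on either strand, and the 2 motifs do not overlap here.
Tnfrsf19, start just outside the counted gene, chr14:61046806-61047105, minus strand: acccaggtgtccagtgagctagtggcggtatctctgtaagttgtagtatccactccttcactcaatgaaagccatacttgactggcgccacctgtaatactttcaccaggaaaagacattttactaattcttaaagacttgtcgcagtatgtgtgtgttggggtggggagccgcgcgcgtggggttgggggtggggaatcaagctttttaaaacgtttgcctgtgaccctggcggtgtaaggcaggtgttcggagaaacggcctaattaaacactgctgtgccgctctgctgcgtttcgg
Tnfrsf19, internal start, chr14:61037938-61038237, minus strand: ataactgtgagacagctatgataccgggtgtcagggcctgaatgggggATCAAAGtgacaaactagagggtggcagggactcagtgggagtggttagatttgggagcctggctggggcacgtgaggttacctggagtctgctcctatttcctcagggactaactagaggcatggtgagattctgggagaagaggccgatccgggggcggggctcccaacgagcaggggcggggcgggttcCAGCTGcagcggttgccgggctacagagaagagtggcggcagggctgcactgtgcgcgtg
Olfm4, a start inside the counted gene, chr14:80000052-80000351, plus strand: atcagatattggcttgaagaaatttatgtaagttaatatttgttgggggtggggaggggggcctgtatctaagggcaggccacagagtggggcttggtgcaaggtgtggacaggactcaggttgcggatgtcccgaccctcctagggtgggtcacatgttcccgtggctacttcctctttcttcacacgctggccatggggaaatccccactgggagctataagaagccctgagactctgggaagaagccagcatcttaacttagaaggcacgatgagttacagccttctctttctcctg
Ascl2, chr7:142969215-142969514, minus strand: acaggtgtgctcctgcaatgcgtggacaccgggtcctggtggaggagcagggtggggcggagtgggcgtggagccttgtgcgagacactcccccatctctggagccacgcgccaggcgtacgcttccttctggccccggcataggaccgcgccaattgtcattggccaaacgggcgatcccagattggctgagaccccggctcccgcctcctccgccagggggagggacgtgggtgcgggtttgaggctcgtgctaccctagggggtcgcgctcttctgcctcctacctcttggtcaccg
The internal start of Tnfrsf19 held 1 CTTTGAT, read here on the other strand and at position −202 from the start site, and 1 CAGCTG, at position −10. Of 32851 RefSeq promoter windows of this length, 3.73% held CTTTGAT and 16.3% held CAGCTG. The other window of Tnfrsf19 and those of Olfm4, Ascl2, Lgr4, Prom1 and Rgmb held neither. These matches are letters in a window, and the counts are per gene and do not show which start was used.

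Slc12a2 encodes the sodium, potassium and chloride cotransporter Nkcc1 and lies on chromosome 18 from 57878678 to 57946821. Controls 1 to 4 had 254, 137, 132 and 212 normalized CPM, and knockouts 1 to 4 had 104, 120, 62.9 and 121. Every knockout lay below every control, with a gap between 121 in knockout 4 and 132 in control 3. The means were 184 ± 59.5 and 102 ± 27.4 (SD, n = 4 each), and the fitted difference was −0.85 on the log2 scale (SE 0.27, unadjusted p = 0.00903, adjusted p = 0.468, exact permutation p = 0.0286). Without knockout 3 the log2 fold change was −0.68 (SE 0.23, adjusted p = 0.258). With no filter on low counts, Slc12a2 passed both cutoffs in edgeR's quasi-likelihood test (log2 fold change −0.84, adjusted p = 0.00879), as 0.783% of 37039 genes did. The difference was −0.73 on the log2(normalized CPM + 1) scale in the first set of library numbers and −0.93 in the second. In the first set, genotype and sex cannot be told apart, as given for Tnfrsf19. With the Y-linked level as a covariate, the log2 fold change of Slc12a2 was −0.69 (adjusted p = 0.852, edgeR's quasi-likelihood test).

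Smoc2, a secreted matricellular protein, had overlapping levels like Lgr5. Its gene is on chromosome 17 from 14279506 to 14404790. Controls 1 to 4 had 54.4, 48.5, 53.8 and 61.7 normalized CPM and knockouts 1 to 4 had 55.5, 56.5, 48.0 and 51.1. Every knockout lay within the control range except knockout 3, which was just below it, and the log2 fold change was −0.05 (SE 0.15, adjusted p = 0.99, 95% interval −0.38 to 0.28), and −0.0093 without knockout 3 (SE 0.14, adjusted p = 0.99). Rgmb, a co-receptor for Bmp ligands, is also on chromosome 17, from 15806253 to 15826586. It lay between 29.1 and 48.1 normalized CPM in the controls and between 25.2 and 44.8 in the knockouts (log2 fold change −0.08, SE 0.22, adjusted p = 0.989), and −0.09 without knockout 3 (SE 0.23, adjusted p = 0.924). Control 4 and knockout 4 had its highest values.

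Prom1, a membrane glycoprotein of cell protrusions, and Msi1, an RNA-binding protein, are both on chromosome 5. Prom1 spans 43993620 to 44102032, and 5.91% of its exon bases also belong to Gm16401 on the other strand, which had at most 4 counts in a library. Msi1 spans 115429599 to 115455698. Prom1 was between 54.1 and 77.6 normalized CPM in the controls and between 34.2 and 62.7 in the knockouts (log2 fold change −0.21, SE 0.21, adjusted p = 0.943). Msi1 was between 9.18 and 15.9 in the controls and between 3.06 and 10.7 in the knockouts (log2 fold change −0.45, SE 0.35, adjusted p = 0.912). Control 1 was the high library for both genes and knockout 3 the low one. Without knockout 3 the log2 fold changes were −0.06 for Prom1 and −0.20 for Msi1.

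Per length of exons, the markers covered a wide range of levels. Olfm4 had 296 ± 103 normalized CPM per kb in the controls, above 99.2% of tested genes over all libraries, and Slc12a2 had 28.2 ± 9.13, Smoc2 19.3 ± 1.90, Lgr4 13.9 ± 4.05 and Rgmb 13.5 ± 3.32 (SD, n = 4 each). The low end was formed by Prom1 at 8.57 ± 1.52, Ascl2 at 5.08 ± 1.84, Lgr5 at 4.63 ± 0.363, Tnfrsf19 at 2.31 ± 0.518 and Msi1 at 1.96 ± 0.528. Olfm4 was above Slc12a2 in all 8 libraries, and Smoc2 above Lgr4 in all 8. Lgr4 and Rgmb did not differ beyond their spread, with Lgr4 higher in 2 of 4 controls and 3 of 4 knockouts.

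The order was not the same in both genotypes. Slc12a2 was above Smoc2 in 4 of 4 controls and in 1 of 4 knockouts, and Ascl2 was above Lgr5 in 3 of 4 controls and in 0 of 4 knockouts. Lgr5 was above Tnfrsf19 in 4 of 4 controls, and in 1 of 4 knockouts. In the knockouts the mean level of Tnfrsf19 per kb, 5.91 ± 2.42, was thus close to that of Lgr5, 4.77 ± 0.778. The exon lengths are those of all annotated isoforms joined, 10264 bases for Lgr5 and 4738 for Tnfrsf19, so levels per kb of genes with long unused exons are understated.

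**Figure D3:**
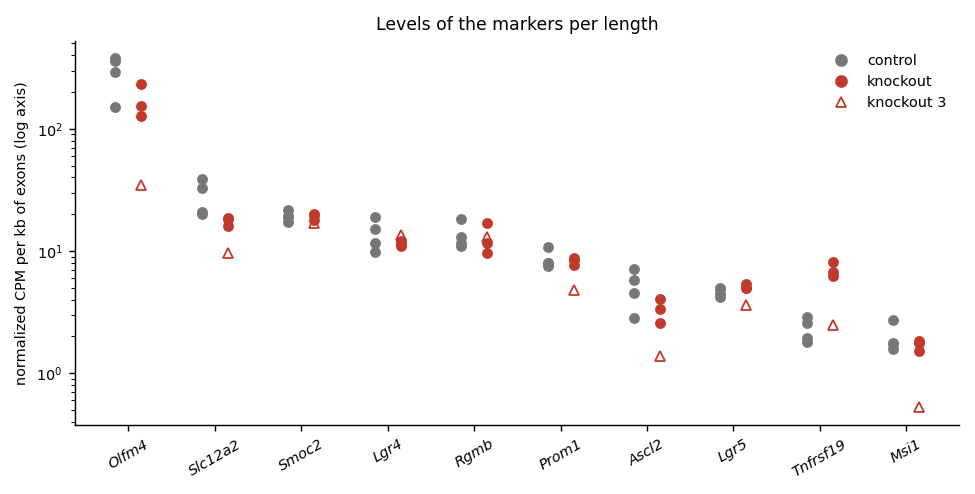
Normalized CPM per kb of exons (log axis) of the 10 markers in each control (grey) and knockout (red) library, ordered by the control mean. Olfm4 lies far above the rest, Tnfrsf19 is close to Msi1 in the controls and close to Lgr5 in the knockouts, and knockout 3 (open triangle) is lowest for 7 of the genes.

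Set against Lgr5 in the same library, the markers can be compared without any scaling between libraries. This ratio of counts was chosen after seeing the data. For each Lgr5 count, Tnfrsf19 had 0.172, 0.215, 0.24 and 0.3 counts in controls 1 to 4 and 0.571, 0.754, 0.315 and 0.578 in knockouts 1 to 4. Every knockout, knockout 3 included, was above every control on this scale (difference 1.22 on the log2 scale, exact permutation p = 0.0286). The gap was narrow, from 0.3 in control 4 to 0.315 in knockout 3. Knockout 3 had the lowest Lgr5 count of all libraries, 317, beside 100 counts of Tnfrsf19. Slc12a2 had 2.58 to 5.08 counts per Lgr5 count in the controls and 1.68 to 2.37 in the knockouts, again without overlap (difference −0.87, exact permutation p = 0.0286). Over all tested genes, the ratio to Lgr5 did not overlap between the genotypes for 4.3%. Of the other 7 markers 0 were free of overlap.

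Olfm4 had 22.5, 20.1, 8.80 and 23.3 counts per Lgr5 count in controls 1 to 4 and 6.75, 8.91, 2.76 and 13.4 in knockouts 1 to 4. Control 3 lay among the knockouts here too (exact permutation p = 0.0857). Ascl2 had 0.0899 to 0.231 counts per Lgr5 count in the controls and 0.0599 to 0.118 in the knockouts (exact permutation p = 0.0857). Smoc2 had between 0.996 and 1.34 counts per Lgr5 count over the 8 libraries. Olfm4 took between 50.6% and 68.2% of the summed level of the 10 markers in the controls and between 24.8% and 61.3% in the knockouts. That sum was 1697, 1267, 888 and 1633 normalized CPM in controls 1 to 4 and 804, 892, 416 and 1122 in knockouts 1 to 4.

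**Figure D4:**
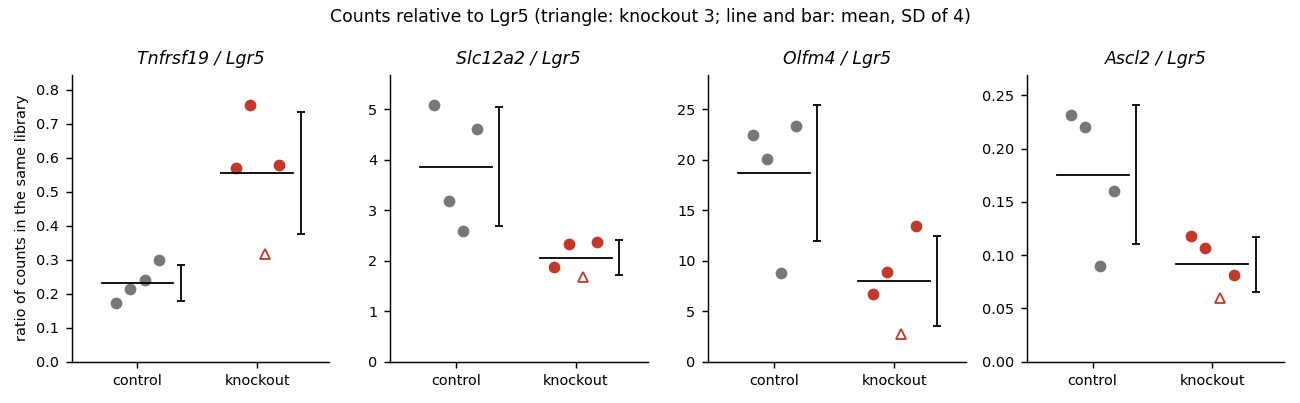
Counts of Tnfrsf19, Slc12a2, Olfm4 and Ascl2 divided by the Lgr5 count of the same library (y axis, from 0), by genotype, with the mean and SD of 4 libraries and knockout 3 as an open triangle. The genotypes are apart for Tnfrsf19 (0.172 to 0.3 against 0.315 to 0.754) and Slc12a2 and overlap for Olfm4 and Ascl2.

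By the mean absolute difference of centred log2(normalized CPM + 1) over the 8 libraries, the genes with a pattern most like that of Lgr5 were Gm5374 (0.0389), Srrm1 (0.058), Dnaja1 (0.0596), Dhx16 (0.0621) and Eif3s6-ps1 (0.0624).  Among the markers Smoc2 ranked 223 (0.117) and Prom1 664 (0.148) of the tested genes, while Tnfrsf19 ranked 12769 and Olfm4 13262. Without knockout 3, Gm5374, Cnpy2, Srrm1 and Pafah1b2 were among the nearest, and Smoc2 ranked 176. Lgr5 varied little, between 37.3 and 55.6 normalized CPM, so this measure places genes of steady level near it and variable genes far from it. The ranks are therefore no test of a shared course with Lgr5.

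Genes of the R-spondin pathway around Lgr4 and Lgr5 were read as a list of 15, of which 9 were tested. Of these, 0 passed both cutoffs with edgeR and 2 had an unadjusted p under 0.05 (6.88% of all tested genes), while DESeq2 called 1, Rnf43 (1.03% of all), and limma-voom 0. The median log2 fold change was 0.01, and 0.15 without knockout 3. The ligands Rspo1, Rspo2, Rspo3 and Rspo4 had at most 3 counts in any library. Rnf43, the ubiquitin ligase that removes Frizzled receptors, was between 8.91 and 14.0 normalized CPM in the controls and between 17.6 and 25.6 in the knockouts, without overlap. Its log2 fold change was 0.87 (SE 0.22, adjusted p = 0.272), and 0.91 without knockout 3 (adjusted p = 0.0768). The glypican Gpc4 did not overlap either, so that 2 of the 9 were free of overlap against 4.52% of all genes, with 3.104 to 6.12 normalized CPM in the controls and 6.45 to 9.12 in the knockouts (log2 fold change 0.81, SE 0.29, adjusted p = 0.562). Znrf3, the ligase related to Rnf43, was between 10.2 and 12.9 normalized CPM in the controls and between 8.84 and 21.4 in the knockouts, where knockout 3 was the lowest.

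A list of 30 other stem cell signature genes, all tested, had 0 past both cutoffs with edgeR, 1 with DESeq2 (Rnf43, against 1.03% of all tested genes) and 3 with limma-voom (Axin2, Sp5 and Tgif1, against 0.707%), 17 above and 13 below 0, and a median log2 fold change of 0.20 (0.17 without knockout 3). At an unadjusted p under 0.05, 6 were higher (4.35% of all tested genes) and 2, Agr3 and Vdr, were lower in the knockouts (2.53% of all). The genes of the list with the highest level per kb were Sox9, Phlda1, Hopx and Cdca7, and none of the 4 passed the test. Sox9, a transcription factor of crypt base and Paneth cells, was at a log2 fold change of −0.11 (SE 0.16, adjusted p = 0.97), and Phlda1 at 0.67 (SE 0.24, adjusted p = 0.564). Hopx, a marker of slowly cycling crypt cells, was at −0.52 (SE 0.25, adjusted p = 0.739) and Cdca7 at −0.45 (adjusted p = 0.784). Without knockout 3, Tgif1, Igfbp4 and Phlda1 passed both cutoffs as Tnfrsf19 did, at log2 fold changes of 1.18, 1.11 and 0.86 (adjusted p = 0.018, 0.0368 and 0.0238), in a fit that called 1.08% of all genes. For these 3 genes, as for Tnfrsf19, knockout 3 was the lowest knockout. These 3, and Rnf43, Gpc4, Znrf3, Axin2, Sp5, Agr3, Vdr, Fabp2, Chga, Neurod1, Rgs13, Sct, Alox5ap, Fcgbp, Zg16, Bub1, Cdk1 and Rrm2, were picked for naming after their values had been seen, and Rnf43 and Znrf3 are on this list too.

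Genes of dividing cells were also read, because the stem cells of the crypt cycle and mature Paneth cells do not. All 20 were tested, 0 passed both cutoffs with edgeR, DESeq2 or limma-voom on all 8 libraries, and all 20 had a log2 fold change above 0, between 0.14 and 1.39 with a median of 0.68. At an unadjusted p under 0.05, 5 of the 20 were higher (4.35% of all tested genes), and for 3 of the 20 the genotypes did not overlap (4.52% of all). The summed level was 144 to 273 normalized CPM in the controls and 215 to 390 in the knockouts. Without knockout 3 the median was 0.69 and 1 gene passed both cutoffs, the mitotic checkpoint kinase Bub1 (log2 fold change 1.65, adjusted p = 0.0126), against 1.08% of all genes in that fit. Bub1 was lowest in knockout 3.

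Markers of the other cells that the gate could hold also differed in level between libraries, and their part in the stem cell marker values was not tested. The summed level of 15 enteroendocrine markers was 1132 to 2409 normalized CPM in the controls, 87.1 to 1050 in knockouts 1, 2 and 4 and 2720 in knockout 3. Of the 14 tested, 13 lay below 0, and the median was −1.42 on the log2 scale (−1.78 without knockout 3). The 12 tuft cell markers summed to 303 to 860 in the controls and 160 to 554 in the knockouts (median −0.83 over 11 tested, −0.66 without knockout 3), and the 12 enterocyte markers to 143 to 329 and 96.8 to 265 (median −0.74 over 9 tested, −0.55 without knockout 3). None of these 3 lists had a gene past both cutoffs with edgeR, where 7 enteroendocrine, 2 tuft and 4 enterocyte genes were lower at an unadjusted p under 0.05 (2.53% of all tested genes), and none of their genes was at 0 in all libraries. Neurod1, a transcription factor of enteroendocrine cells, was past the false discovery rate of 10% with edgeR (log2 fold change −2.27, adjusted p = 0.0629). DESeq2 called Chga, Neurod1, Rgs13 and Fabp2 (1.03% of all genes), and limma-voom called Neurod1 and Fabp2 (0.707% of all).

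Of the 18 Paneth cell markers 0 passed both cutoffs in any of these tests and 0 had an unadjusted p under 0.05. Their median log2 fold change was −0.14, and −0.46 without knockout 3, whose summed Paneth level was the highest of all libraries. The 12 goblet cell markers had a median of 0.0046, with 2, Fcgbp and Zg16, that were lower with an unadjusted p under 0.05 (2.53% of all tested genes), 0 higher and 0 called in any of these tests, and a median of −0.31 without knockout 3. Their summed level was 9502 to 18170 normalized CPM in the controls and 8086 to 19465 in the knockouts. Immune markers summed to at most 29.9 normalized CPM, and 10 of 15, among them Cd3e and Cd8a, had at most 3 counts in every library. Stromal markers summed to at most 7.89. With no filter on low counts, which called 0.783% of 37039 genes, edgeR called Axin2, Sp5, Igfbp4, Agr3 and Tgif1 of the signature genes, Cdk1 and Rrm2 of the proliferation genes, Neurod1 and Sct of the enteroendocrine, Rgs13 and Alox5ap of the tuft and Fabp2 of the enterocyte markers.

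**Figure D5:**
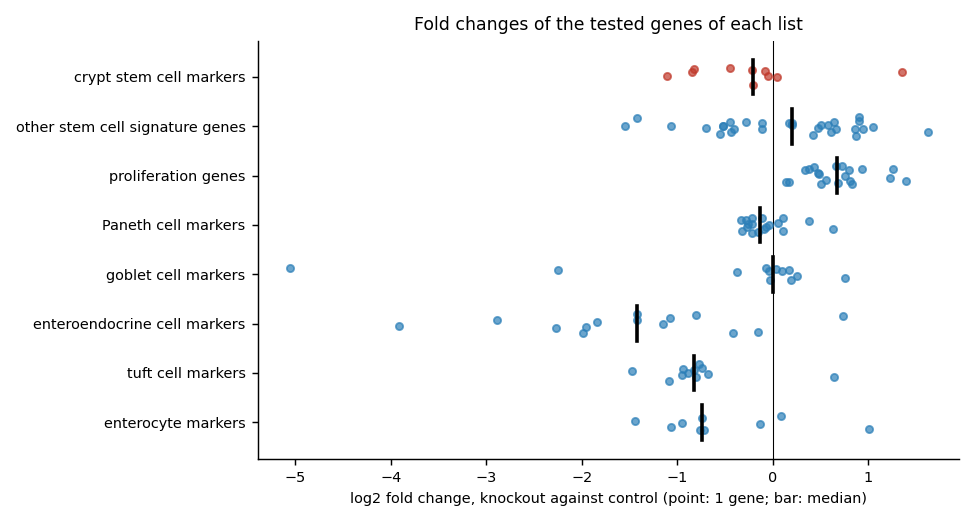
Log2 fold changes (knockout against control, x axis) of the tested genes of 8 lists, 1 point per gene with the list's median as a bar; vertical scatter within a row has no meaning. The 10 crypt stem cell markers spread from −1.11 to 1.36 around −0.21, all 20 proliferation genes lie above 0, and most enteroendocrine, tuft and enterocyte markers lie below 0.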

How the data were processed

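Paneth cells of 4 control and 4 knockout mice were profiled by the Smart-seq2 protocol (poly(A)-primed cDNA, PCR-amplified). Per the study's methods and processing notes, the authors aligned reads to mm10 with GSNAP and counted uniquely mapped reads on Ensembl release 92 genes with featureCounts 1.6.3. The deposited values are raw counts per gene and library, not normalized. PCR copies are counted separately, so the limit of 3 counts covers counting error only, while standard errors and intervals come from the spread between libraries. The strand setting is not given in the sources used here. Groups follow the genotype labels, and replicate numbers are names only. The animal number of control 4 and knockout 4 is the same in the labels and was not used. The 92 spike-in rows were left out, and 53620 of the 53801 Ensembl identifiers had a symbol. No pair of libraries agreed within sampling noise (smallest chi-square per degree of freedom 12.1).

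Counts were tested in R 4.3.3 with edgeR 4.0.16 (TMM, filterByExpr at min.count 10 and min.total.count 15, robust quasi-likelihood fit, Benjamini-Hochberg adjustment over 13439 genes), and functions were tested on simulated data. Standard errors are the log2 fold change divided by the square root of F. Both cutoffs are an adjusted p of 0.05 and a log2 fold change of 0.5. DESeq2 1.42.0, limma 3.58.1 and other settings were alternatives. Single levels were tested by exact permutation of 8 libraries. All 10 markers were named. Of the other lists those past both cutoffs and up to 4 with the highest level were, with exceptions stated, and the 5 genes most like Lgr5, of which 1 without knockout 3 is not reported here. The members and lists were chosen with earlier results of these data known.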

Additional observations from a re-analysis of the deposited data

Results flagged for a closer look

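The extreme libraries of each genotype were tested by Dixon's criterion, the gap to the nearest library as a share of the range. Of 44 such groups, 5 were beyond the critical value, and chance gives about 2.2. The groups share libraries and are not independent. Control 1 was apart for Msi1, at 15.9 normalized CPM against 9.18 to 10.3 in the other controls (gap 0.84 of the range), and for Prom1, at 77.6 against 54.1 to 57.3 (0.865). Knockout 3 was apart for its TMM factor, 0.632 against 1.22 to 1.34 (0.83), for its mitochondrial share, 2.04% against 5.98% to 6.16% (0.957), and for the ratio of Lgr4 to Lgr5 counts, 2.11 against 1.27 to 1.32 (0.934).

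The spike-in rows, which no comparison used, had up to 11 counts in a library (knockout 2), against 0 to 5 in the others.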

How the results depend on the processing

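The 25 genes called over the whole table became 38 at a false discovery rate of 10% with no limit on the fold change, 290 with no filter on low counts, 13 with at least 10 counts in every library, 138 with DESeq2's Wald test, 95 with limma-voom and 10 with the Y-linked covariate, and between 10 and 152 with 1 library left out, 152 without knockout 3. The number of markers called was 2 with no filter (Tnfrsf19, adjusted p = 1.66e-05, and Slc12a2, adjusted p = 0.00879) and 1, Tnfrsf19, with DESeq2, with limma-voom and without knockout 3, a range of 0 to 1 with 1 library left out. It stayed at 0 with the other settings, which were DESeq2 or upper-quartile factors, library sizes without the 50 most abundant genes in place of TMM, the higher count minimum, a fit with robust=FALSE, a block for the library set, the Y-linked covariate and 10% FDR. The adjusted p of Tnfrsf19 lay between 1.66e-05 and 0.602 over all alternatives. The markers' median log2 fold change stayed between −0.25 and −0.17, and between −0.30 and −0.14 with 1 library left out.

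Members near 0 changed sign: with 1 library left out, Lgr5 ranged from −0.016 to 0.15 and Smoc2 from −0.11 to 0.011, and Rgmb from −0.25 to 0.10, with 0.11 under the Y-linked covariate. In the permutation tests of log2(normalized CPM + 1), with 1 library left out, differences ranged from −0.035 to 0.15 for Lgr5, −0.31 to 0.0056 for Lgr4, −0.10 to 0.013 for Smoc2, −0.22 to 0.078 for Rgmb, 0.99 to 1.54 for Tnfrsf19 (p = 0.0286 without knockout 3, exact) and −0.97 to −0.61 for Slc12a2 (exact p from 0.0286 to 0.0857, with fewer libraries). The ratio to Lgr5, chosen after seeing the data, moved the difference of Tnfrsf19 to 1.22 (exact permutation p = 0.0286). The causes were not tested. No paired analysis was possible because the labels of the genotypes share 1 animal number and replicate numbers pair no mice. The methods speak of littermates, but no litter is given for a sample, so a shared litter could not be fitted, and the block for the library set (24 genes called) is not a block for litters. Levels of Ascl2 rest on as few as 19 counts.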
